A study of Mus musculus with 24 samples.

Results

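The comparison described here asks whether livers that lack the epidermal growth factor receptor (EGFR) in hepatocytes changed their RNA during the first hour after an acetaminophen overdose in another way than wild-type livers did. It is a difference of 2 responses, each a log2 fold change of 1 h over 0 h: that of KO livers minus that of WT livers. It rests on 12 of the 24 libraries, 3 in each of 4 groups: hepatocyte-specific Egfr knockout (KO) livers at 1 h, KO livers at 0 h, wild-type (WT) livers at 1 h and WT livers at 0 h. The mice had been given acetaminophen at 500 mg/kg, and the labels call each library the liver of an individual mouse. The sources used here give neither the line that drives the deletion, nor the strain, the age or the treatment of the 0 h mice. Egfr was removed from hepatocytes alone, so the other liver cells keep it, and each library is bulk polyadenylated RNA of liver, in which fewer cells of a type and less RNA per cell cannot be told apart. The other libraries, at 3 h and 12 h, share the fit, with its filter, scaling and spread, and are otherwise used only to follow the same genes. The design also names 6 h and 24 h, but none of the 24 libraries is of those times.

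EGFR is a receptor tyrosine kinase that binds EGF, TGF-alpha, amphiregulin and related ligands and signals through the RAS-ERK and PI3K-AKT pathways; AKT keeps FOXO transcription factors out of the nucleus. In liver it is abundant on hepatocytes and takes part in regeneration and in lipid handling. Acetaminophen is oxidised in pericentral hepatocytes to a reactive quinone imine that depletes glutathione and damages mitochondria, and stress genes such as heat shock chaperones and immediate early transcription factors are known to follow. PPARA, named below, is the nuclear receptor that senses fatty acids in hepatocytes and induces genes for their oxidation and storage.

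The 12 libraries held 4.60 M to 7.58 M counts assigned to genes, 39.7% to 43.2% of them from the mitochondrial ribosomal RNAs. Egfr had 335, 136 and 155 CPM (counts relative to the TMM-scaled library size) in KO livers at 1 h and 59.5, 78.04 and 109.6 CPM in KO livers at 0 h. In WT livers, Egfr had 332, 407 and 400.2 CPM at 1 h, with 385, 334 and 461 CPM at 0 h. KO minus WT, averaged over both times, was -1.62 on the log2(CPM + 1) scale (exact two-sided permutation test within times, p = 0.01, smallest possible 0.005). The library labelled KO 1 h replicate 1 was at the WT level, against its label, so the KO and WT libraries overlap at 1 h and not at 0 h. WT 0 h replicate 2 stood apart from the other 11 libraries on the second principal component (-35.7, against -16.8 to 17.6 for the others) and had the fewest counts. The count of genes that passed is therefore given below also without these 2 libraries. Lists of genes and of cell markers were refitted without KO 1 h replicate 1 alone, and not without WT 0 h replicate 2. Hepatocyte markers summed to 37399.9 to 43288 CPM in KO livers at 1 h and 31622 to 38873 CPM in KO livers at 0 h. In WT livers they summed to 36287 to 39824 CPM at 1 h and 32106 to 36507 CPM at 0 h. The bile duct and gallbladder markers reached 318 CPM in 1 KO liver at 1 h and 29.4 CPM at most in WT and 0 h livers. Of 5 such markers tested, none passed for the difference by edgeR, 1 was higher at an unadjusted p under 0.05, and DESeq2 called 1 higher. Without KO 1 h replicate 1, 1 of 7 passed as higher for the difference and 4 as higher in KO at 1 h, with a median difference of 5.30. The part of these cells in the results below was not tested, and no gene named below as having passed is on that list.

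Of 13204 genes tested, 60 (0.454%) differed in their response at an adjusted p under 0.05 (edgeR quasi-likelihood test, Benjamini-Hochberg adjustment), 21 with a higher response in KO livers (0.159%) and 39 with a lower one (0.295%). Within the genotypes, 1001 genes (7.58%) changed between 1 h and 0 h in KO livers, 521 up (3.95%) and 480 down (3.64%). In WT livers 1068 (8.09%) changed, 540 up (4.09%) and 528 down (4%), and 388 changed in both, 379 of them in the same direction. Across the 13204 genes the responses, which share no library, had a Pearson correlation of 0.54 and a Spearman correlation of 0.36 (genes are not independent replicates). Among the 39 genes with a lower response in KO, 26 rose in WT livers and 13 did not pass there, while 19 fell, 19 did not pass and 1 rose in KO livers. Among the 21 with a higher response in KO, 18 fell in WT livers and 3 did not pass there, while 14 did not pass, 6 rose and 1 fell in KO livers. The most frequent pattern was thus a change in WT that did not pass in KO, with 19 genes that rose in WT and 14 that fell in WT. A further 9 genes passed in opposite directions: 6 rose in WT and fell in KO, and 3 fell in WT and rose in KO. The plot of KO against WT responses shows these genes away from the line of equal response, mostly beside the WT axis. The call depended on single libraries. Without KO 1 h replicate 1, 83 genes passed (45 of the 60), and 15 without KO 1 h replicate 2 (all among the 60). It was 19 without KO 0 h replicate 2 and 33 without KO 0 h replicate 3. Among WT libraries it was 32 without 1 h replicate 1, 20 without 1 h replicate 3, 35 without 0 h replicate 1 and 27 without 0 h replicate 3. The count was 41 without WT 0 h replicate 2 (36 of the 60) and 77 without both libraries in doubt (39 of the 60). In the 12 fits that each left out 1 library, 13 of the 60 passed every time, and no gene of the 60 changed direction. The number of these fits in which a gene passed is given for most genes below.

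**Figure D1:**
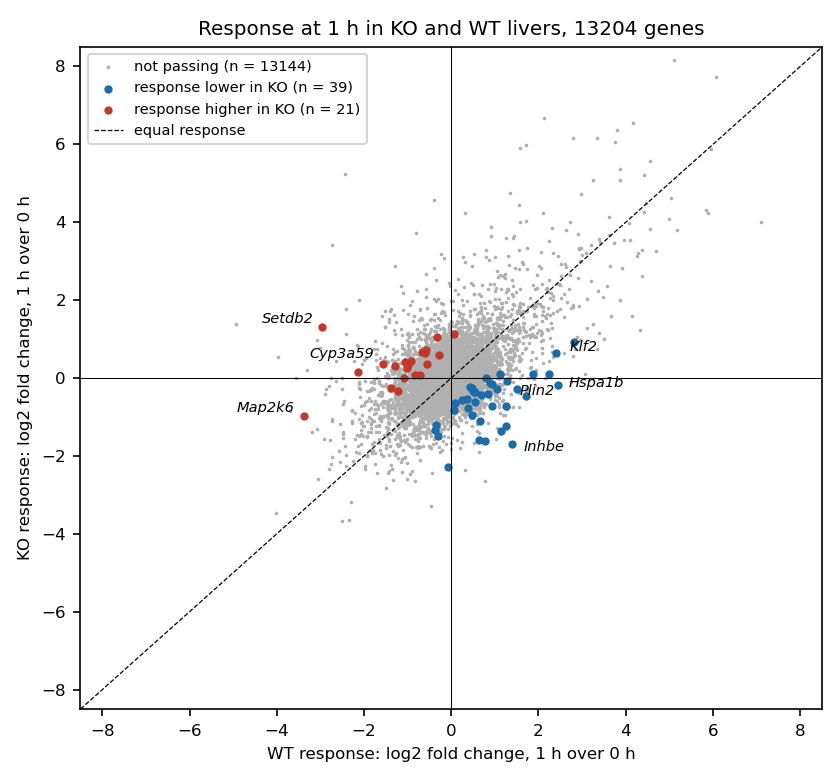
Response at 1 h (log2 fold change, 1 h over 0 h) in KO livers (vertical axis) and WT livers (horizontal axis) for 13204 genes, one point per gene; the dashed line marks equal responses. The 39 genes with a lower response in KO (blue) lie below the line and the 21 with a higher response (red) above it, with Map2k6 at -0.97 in KO and -3.39 in WT, and Inhbe at -1.68 in KO and 1.40 in WT.

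To say at which time a difference arose, the KO minus WT fold change was taken at each time. A difference is called mainly of 1 h where that at 1 h is at least 2 times as large as that at 0 h, mainly of 0 h in the reverse case, and of both times otherwise. By this rule 28 of the 60 genes differed mainly at 1 h, 28 at both times and 4 mainly at 0 h (Setdb2, Tuba1c, Cep85l and the predicted locus Gm16146). Tested at each time alone, 32 of the 60 passed at 1 h and 2 at 0 h, and 26 passed at neither. Among all genes, 65 passed at 1 h (0.492%), 18 higher in KO (0.136%) and 47 lower (0.356%). At 0 h there were 2 (0.0151%), both lower in KO and both among the 60 (Setdb2 and Gm16146), and Egfr did not pass. None was higher in KO at 0 h by edgeR, where 535 (4.05%) were higher and 537 (4.07%) lower at an unadjusted p under 0.05. DESeq2 called 11 higher and 13 lower at 0 h. In 59 of the 60 genes KO minus WT had opposite signs at the 2 times, against 6954 of all 13204; since the genes were chosen for the difference between the times, nothing is read from this count. At 1 h, all 3 KO livers lay below all 3 WT livers for 38 of the 39 genes with a lower response (7.72% of all genes), and above them for 17 of the 21 with a higher response (7.17%). At 0 h the KO livers lay above the WT livers for 24 of the 39 (7.08%) and below for 17 of the 21 (7.29%). The contrast itself fixes much of this separation, and it is given as a description.

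**Figure D2:**
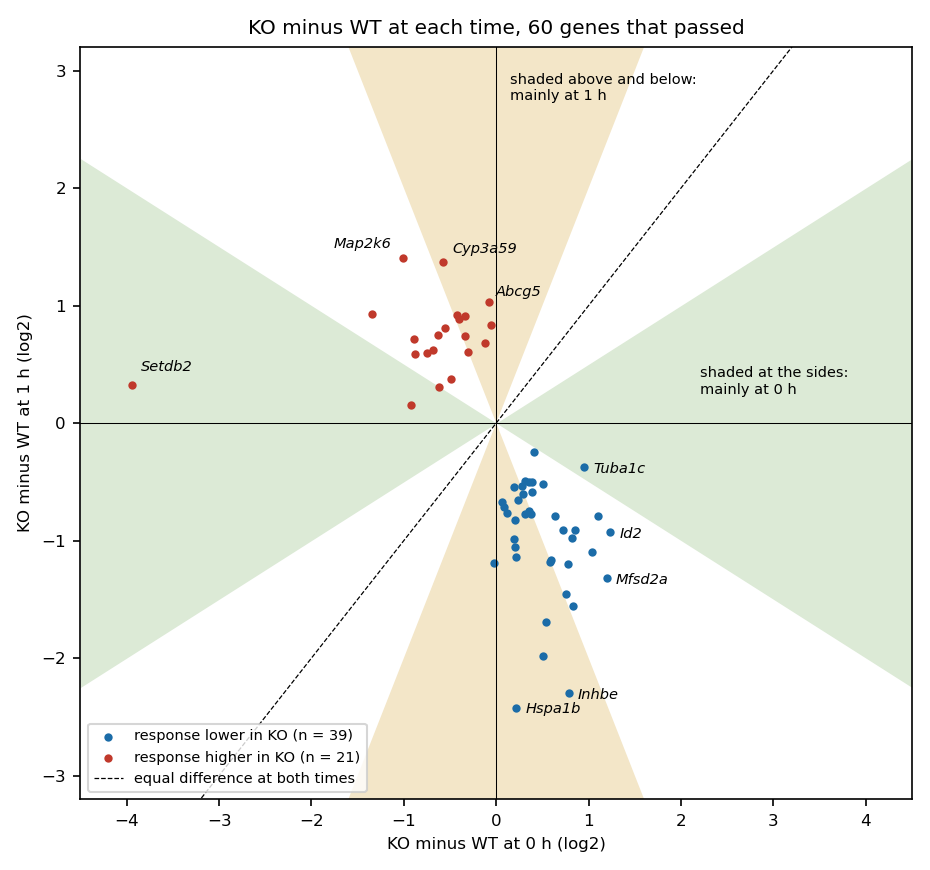
KO minus WT (log2 fold change) at 1 h (vertical) and 0 h (horizontal) for the 60 genes; shading marks differences mainly of 1 h (above and below) and mainly of 0 h (sides), and the dashed line marks equal differences. Genes with a lower response in KO (blue, 39) lie at the lower right and those with a higher one (red, 21) at the upper left; Setdb2 is at 0.32 at 1 h and -3.95 at 0 h, and Hspa1b at -2.42 at 1 h and 0.21 at 0 h.

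The 7 genes described first have roles in lipid storage or fatty acid use, were picked from those that passed, and rose in WT livers at 1 h and not in KO livers. Plin2, Gk, Mgll, Elovl5, Lipa, Cpt2 and Hsdl2 had lower responses in KO, by log2 differences of -1.36 to -0.66. Plin2, the perilipin that coats lipid droplets, had 127, 137 and 182 CPM in KO livers at 1 h and 161, 168 and 146 CPM in KO livers at 0 h. In WT livers, Plin2 had 314, 252 and 421 CPM at 1 h, with 136, 120.0 and 152 CPM at 0 h. The 3 WT livers at 1 h were above all 9 other libraries, and KO and WT livers overlapped at 0 h. The Plin2 responses differed by -1.36 ± 0.24 (SE, adjusted p = 0.00634). KO minus WT was -1.14 ± 0.17 at 1 h (adjusted p = 0.000983) and 0.22 ± 0.17 at 0 h (adjusted p = 0.787), so the difference was mainly of 1 h. Gk, glycerol kinase, which feeds glycerol into triglyceride and glucose synthesis, had 144, 91.8 and 96.3 CPM in KO livers at 1 h and 153, 151 and 137 CPM in KO livers at 0 h. In WT livers, Gk had 217, 199 and 272 CPM at 1 h, with 139, 125 and 119 CPM at 0 h. Again the WT livers at 1 h stood above every other library, and the groups overlapped at 0 h. Its difference of response was -1.26 ± 0.21 (SE, adjusted p = 0.00281), mainly of 1 h. Mgll, the lipase that releases fatty acid and glycerol from monoglycerides, had 56.8, 58.9 and 54.2 CPM in KO livers at 1 h and 86.6, 74.3 and 67.3 CPM in KO livers at 0 h. In WT livers, Mgll had 103, 86.7 and 95.02 CPM at 1 h, with 64.7, 56.1 and 57.02 CPM at 0 h. Here KO livers were below WT livers at 1 h and above them at 0 h, with no overlap at either time. The Mgll responses differed by -1.10 ± 0.16 (SE, adjusted p = 0.00156). In KO livers Mgll responded by -0.42 ± 0.11 (adjusted p = 0.0172) and in WT livers by 0.68 ± 0.11 (adjusted p = 0.000167). Plin2, Gk, Mgll and Hsdl2 passed in all 12 fits that left out 1 library.

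Elovl5, an elongase of polyunsaturated fatty acids, had 298, 292 and 373 CPM in KO livers at 1 h and 313, 350.2 and 400.1 CPM in KO livers at 0 h. In WT livers, Elovl5 had 598, 482 and 567 CPM at 1 h, with 332, 215 and 309 CPM at 0 h. At 1 h the KO libraries were all lower, and at 0 h the groups overlapped. The Elovl5 difference of response was -1.09 ± 0.20 (SE, adjusted p = 0.0076), mainly of 1 h, and passed in 11 of the 12 fits. Lipa, the lysosomal acid lipase that hydrolyses cholesteryl esters and triglycerides, ranged over 53.1 to 75.1 CPM in KO livers and 88.3 to 116 CPM in WT livers at 1 h. Its responses differed by -0.89 ± 0.18 (SE, adjusted p = 0.0153), mainly of 1 h (10 of the 12 fits). Hsdl2, a peroxisomal short-chain dehydrogenase-like protein, ranged over 78.8 to 102 CPM in KO livers and 131 to 139 CPM in WT livers at 1 h. The Hsdl2 difference was -0.90 ± 0.15 (SE, adjusted p = 0.00278), mainly of 1 h. Cpt2, the inner-membrane carnitine palmitoyltransferase of fatty acid import into mitochondria, differed by -0.66 ± 0.16 (SE, adjusted p = 0.0488) at both times. It passed in only 1 of the 12 fits and not without KO 1 h replicate 1. Slc25a22, a mitochondrial glutamate carrier, differed by -1.02 ± 0.23 (SE, adjusted p = 0.0425) at both times and passed in 3 of the 12 fits, likewise not without that library. Grb14, an adaptor that inhibits the insulin receptor, responded by 0.01 ± 0.12 in KO livers (adjusted p = 0.976) and by 0.81 ± 0.12 in WT livers (adjusted p = 2.53e-05). The Grb14 difference, -0.80 ± 0.17 (SE, adjusted p = 0.0226), arose mainly at 1 h and passed in 6 of the 12 fits.

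In the list of PPARA targets and fatty acid oxidation genes, 27 of 28 tested members had a lower response in KO, with a median difference of -0.51 against 0.0083 over all genes tested. Of these, 2 passed (Plin2 and Cpt2), none passed as higher, and 14 were lower at an unadjusted p under 0.05, where 5.51% of all genes were (5.42% were higher). DESeq2 called 7 of the 28 lower. Without KO 1 h replicate 1 the median was -0.66 and again 2 members passed. The median KO minus WT was -0.47 at 1 h and 0.053 at 0 h, 8 members rose in WT livers and none in KO livers, and 4 fell in KO livers and none in WT livers. Ehhadh, a bifunctional enzyme of peroxisomal beta-oxidation, missed the threshold. It had 769.6, 722 and 786 CPM in KO livers and 1802, 1466 and 2078 CPM in WT livers at 1 h. Its difference of response was -1.02 ± 0.26 (SE, adjusted p = 0.0822, mainly of 1 h). At 1 h alone, Ehhadh was lower in KO by -1.23 ± 0.19 (adjusted p = 0.00144), with no overlap between the groups. Acadm, the medium-chain acyl-CoA dehydrogenase, gave -0.60 ± 0.17 (SE, adjusted p = 0.119, of both times) and did not pass either. The lipogenesis list had a median of -0.29, with 1 of 21 passing (Elovl5, lower) and 7 lower at an unadjusted p under 0.05. Acly, which makes cytosolic acetyl-CoA, gave -0.64 ± 0.20 (SE, adjusted p = 0.174, of both times) and did not pass. Cholesterol synthesis genes had a median of -0.43, with 0 of 22 called by edgeR or DESeq2 and 0 at an unadjusted p under 0.05. Their median KO minus WT was 0.065 at 1 h and 0.44 at 0 h. Without KO 1 h replicate 1 the sign at 1 h turned, to -0.15, and 2 cholesterol synthesis genes of 23 were lower at an unadjusted p under 0.05. The 6 adipocyte markers summed to 7.67 to 27.2 CPM in KO livers at 1 h and 14.9 to 24.8 CPM in KO livers at 0 h. In WT livers they summed to 37.4 to 64.1 CPM at 1 h and 14.1 to 27.05 CPM at 0 h. Most of that sum was Cidec, a lipid droplet protein that steatotic hepatocytes also express, at 53.2, 31.5 and 55.7 CPM in WT livers at 1 h. Lep and Cfd were at 0 in all 3 of those livers, while Adipoq, at 0 in all livers at 0 h, was not. In KO livers at 1 h no adipocyte marker was at 0 throughout the group. The part of adipocytes in the lipid gene result was not tested.

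**Figure D3:**
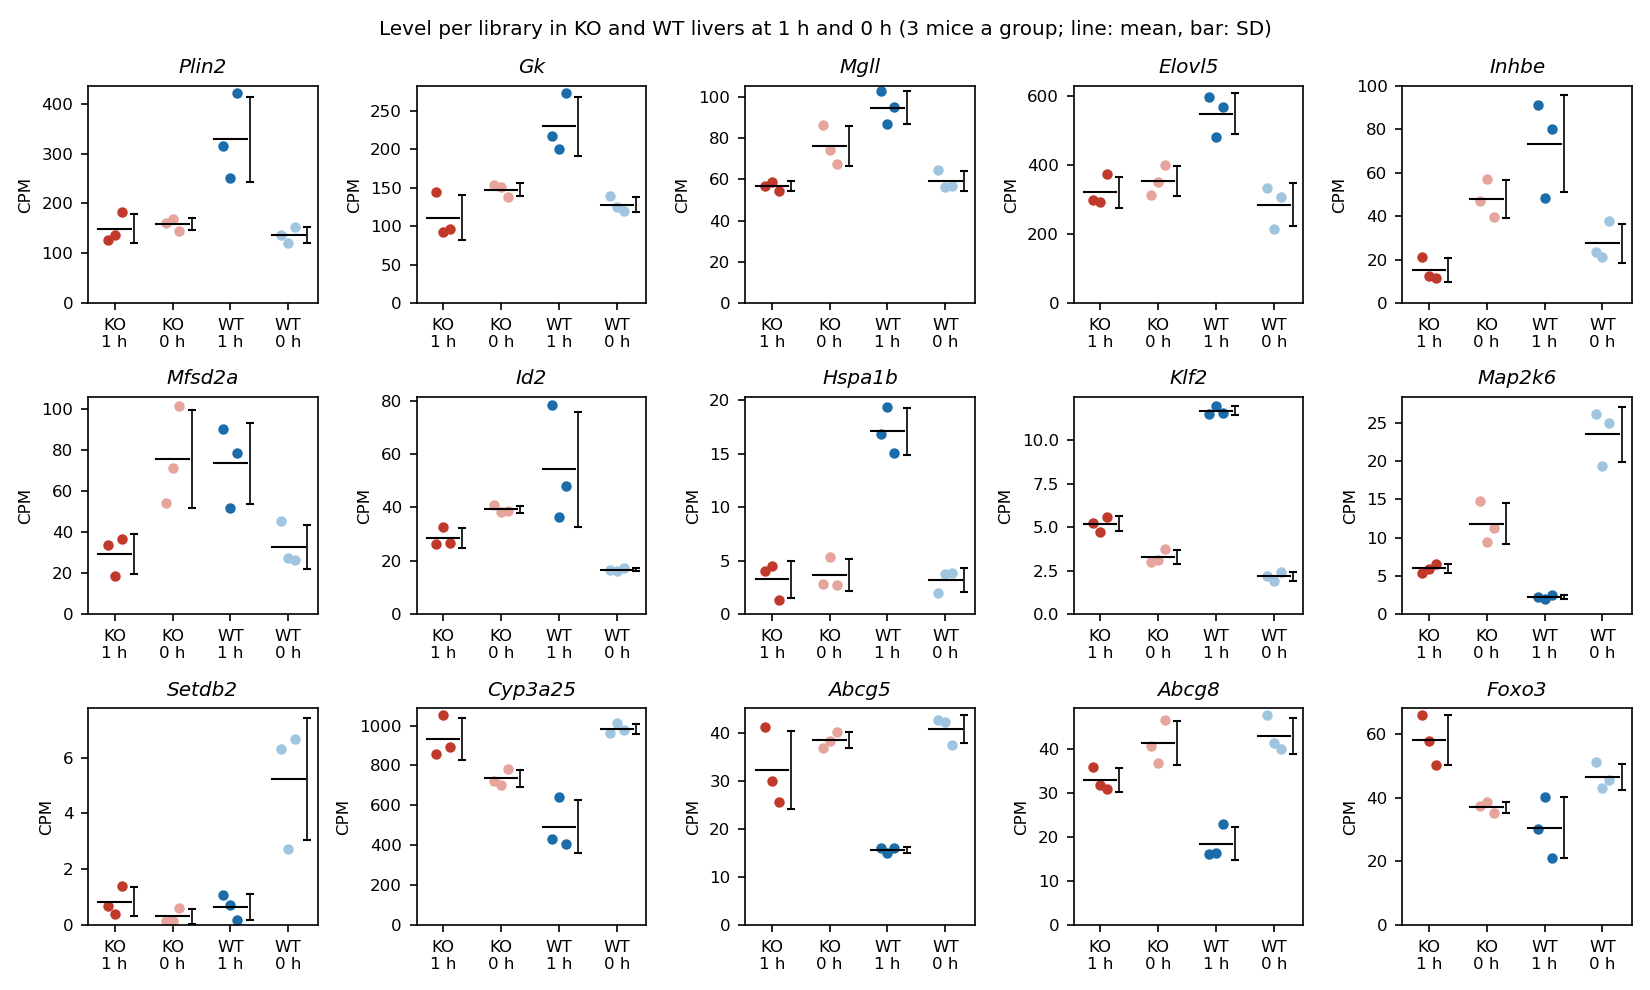
Level (CPM, linear axes from 0) of 15 genes that passed, one point per liver, in KO livers at 1 h and 0 h and WT livers at 1 h and 0 h; lines are means and bars SDs (n = 3 mice). For Plin2, Gk, Hspa1b and Klf2 the WT 1 h livers stand above the other groups, and for Abcg5, Abcg8 and Map2k6 they stand below them.

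Cytosolic heat shock chaperones form the next group, shown first by the promoters of the 2 members that passed, Hspa1b and Hsph1. Heat shock elements are arrays of inverted GAA units bound by the heat shock factor. Capitals mark every match to GAANNTTC or TTCNNGAA, each of which reads the same on both strands. The windows are RefSeq's, from 250 bases before to 50 bases after the start, on GRCm38.p6.
Hspa1b (chr17:34959189-34959488, minus strand, 1 match): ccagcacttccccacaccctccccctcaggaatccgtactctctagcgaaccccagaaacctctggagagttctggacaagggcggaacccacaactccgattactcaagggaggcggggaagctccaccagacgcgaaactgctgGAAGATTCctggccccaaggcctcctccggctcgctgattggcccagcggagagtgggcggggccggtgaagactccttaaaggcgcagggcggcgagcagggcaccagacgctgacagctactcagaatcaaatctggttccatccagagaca
Hsph1 (chr5:149636287-149636586, minus strand, 3 matches, 2 of which overlap): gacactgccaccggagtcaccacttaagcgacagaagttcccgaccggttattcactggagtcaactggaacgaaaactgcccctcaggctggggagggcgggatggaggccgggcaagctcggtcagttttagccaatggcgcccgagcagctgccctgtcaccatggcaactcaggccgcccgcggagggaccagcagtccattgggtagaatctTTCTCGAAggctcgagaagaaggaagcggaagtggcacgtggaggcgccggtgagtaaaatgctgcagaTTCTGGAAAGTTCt
A gene was counted where any of its windows held such a match. That was so for 10 of the 14 heat shock genes with a window (71.4%) and 4587 of all 27025 genes with a window (17.0%). It was so for 6 of the 30 genes with a window and a lower response in KO (20.0%). A match stood in 5 of the 18 genes with a window and a higher response (27.8%) and in 1419 of the 9621 tested genes with a window (14.7%). The overlapping pair in Hsph1 makes an array of 3 units, and such an array, on either strand, stood in 179 of all genes with a window (0.662%) and in 4 of the 14. Hspd1 and Hspe1, both on chromosome 1, each had 3 matches and 2 arrays, so the same elements may be counted for both.

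Hspa1b, an inducible cytosolic HSP70, had 4.01, 4.46 and 1.28 CPM in KO livers at 1 h and 2.85, 5.37 and 2.73 CPM in KO livers at 0 h. In WT livers, Hspa1b had 16.9, 19.4 and 15.04 CPM at 1 h, with 1.93, 3.78 and 3.86 CPM at 0 h. The 3 WT livers at 1 h stood above the other 9 libraries, which overlapped one another. Its difference of response was -2.63 ± 0.58 (SE, adjusted p = 0.0374). In KO livers Hspa1b responded by -0.19 ± 0.43 (adjusted p = 0.864) and in WT livers by 2.45 ± 0.37 (adjusted p = 0.000125). The difference arose mainly at 1 h and passed in 2 of the 12 fits. Since its near-identical copy Hspa1a had only 0 to 5 counts per library, reads that fit both copies may be missing from it. Hsph1, an HSP110 nucleotide exchange factor for HSP70, had 26.3, 17.6 and 15.7 CPM in KO livers at 1 h and 37.7, 47 and 41.7 CPM in KO livers at 0 h. In WT livers, Hsph1 had 34.7, 35.1 and 41.3 CPM at 1 h, with 26.4, 28.2 and 16.3 CPM at 0 h. KO livers were below WT livers at 1 h and above them at 0 h, with no overlap at either time. The difference was -1.76 ± 0.37 (SE, adjusted p = 0.0374), of both times, and passed in only 1 of the 12 fits. In KO livers Hsph1 responded by -1.10 ± 0.26 (adjusted p = 0.0122) and in WT livers by 0.66 ± 0.26 (adjusted p = 0.151). All 17 tested members of the heat shock list had a lower response in KO, with a median of -0.51 against 0.0083 for all genes. Of these 2 passed, 0 were higher, and 11 were lower at an unadjusted p under 0.05 (DESeq2 called 3 lower). Without KO 1 h replicate 1 the median was -0.59 and 4 members passed. The median KO minus WT was -0.34 at 1 h and 0.27 at 0 h. The HSP40 cochaperone gene Dnaja1, at -0.75 ± 0.18 (SE, adjusted p = 0.0526, of both times), and Stip1, which links HSP70 to HSP90, at -0.66 ± 0.19 (SE, adjusted p = 0.125, of both times), did not pass. Nor did Hspa8, the constitutive HSP70, at -0.39 ± 0.18 (SE, adjusted p = 0.417, mainly of 1 h), or Dnajb1, another HSP40, at -0.62 ± 0.52 (SE, adjusted p = 0.741, mainly of 1 h). The endoplasmic reticulum chaperones had a median of -0.14, with none of 18 called by edgeR or DESeq2 and 1 higher at an unadjusted p under 0.05.

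The tubulin genes Tubb2a and Tuba1c also had lower responses in KO livers. Tubb2a, a beta-tubulin, had 15.7, 13.8 and 16.2 CPM in KO livers at 1 h and 9.82, 7.31 and 6.95 CPM in KO livers at 0 h. In WT livers, Tubb2a had 22.1, 16.98 and 40.7 CPM at 1 h, with 3.61, 4.204 and 3.46 CPM at 0 h. KO livers were lower at 1 h and higher at 0 h, with no overlap at either time, and both genotypes rose. In KO livers Tubb2a responded by 0.93 ± 0.27 (adjusted p = 0.0332) and in WT livers by 2.82 ± 0.29 (adjusted p = 1.24e-06). The difference, -1.89 ± 0.40 (SE, adjusted p = 0.0345), was of both times and passed in 5 of the 12 fits. Tuba1c, an alpha-tubulin, is one of the 4 genes that differed mainly at 0 h. It ranged over 7.28 to 10.3 CPM in KO livers and 3.78 to 5.41 CPM in WT livers at 0 h. At 1 h it ranged over 6.45 to 7.43 CPM in KO livers and 8.702 to 9.75 CPM in WT livers. Its difference of response, -1.32 ± 0.31 (SE, adjusted p = 0.0443), passed in 2 of the 12 fits and not without KO 1 h replicate 1. Reads shared with other tubulin genes make both levels uncertain. Tor3a, a torsin ATPase of the endoplasmic reticulum, had 5.05, 4.596 and 5.61 CPM in KO livers at 1 h and 4.75, 4.48 and 4.97 CPM in KO livers at 0 h. In WT livers, Tor3a had 13.9, 8.84 and 11.9 CPM at 1 h, with 3.22, 3.57 and 2.798 CPM at 0 h. The WT livers at 1 h were above all others, and the difference, -1.76 ± 0.40 (SE, adjusted p = 0.0351), was mainly of 1 h (3 of the 12 fits).

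Inhbe, Mfsd2a and Aqp4, which encode secreted or membrane proteins, had a lower response in KO livers, where each of them fell. Inhbe, which encodes the activin E subunit secreted by hepatocytes, had 21.4, 12.6 and 11.3 CPM in KO livers at 1 h and 46.9, 57.3 and 39.6 CPM in KO livers at 0 h. In WT livers, Inhbe had 91.5, 48.5 and 80.3 CPM at 1 h, with 23.7, 21.02 and 37.7 CPM at 0 h. KO livers lay below WT livers at 1 h and above them at 0 h, with no overlap at either time. Inhbe had the most negative difference of response among the 39, -3.09 ± 0.57 (SE, adjusted p = 0.0226), mainly of 1 h. In KO livers Inhbe responded by -1.68 ± 0.41 (adjusted p = 0.0179) and in WT livers by 1.40 ± 0.39 (adjusted p = 0.0348). It passed in 5 of the 12 fits. Mfsd2a, a transporter of lysophosphatidylcholine carrying long-chain fatty acids, had 33.8, 18.4 and 36.5 CPM in KO livers at 1 h and 54.1, 71.2 and 102 CPM in KO livers at 0 h. In WT livers, Mfsd2a had 90.1, 51.6 and 78.8 CPM at 1 h, with 45.2, 27.1 and 26.2 CPM at 0 h. The same order held, again with no overlap at either time. In KO livers Mfsd2a responded by -1.36 ± 0.34 (adjusted p = 0.0207) and in WT livers by 1.15 ± 0.34 (adjusted p = 0.0482). The Mfsd2a difference, -2.51 ± 0.49 (SE, adjusted p = 0.0321), was of both times and passed in 5 of the 12 fits. Aqp4, a water channel, had 4.18, 3.24 and 2.93 CPM in KO livers at 1 h and 10.1, 9.25 and 12.04 CPM in KO livers at 0 h. In WT livers, Aqp4 had 10.8, 6.56 and 12.9 CPM at 1 h, with 6.83, 5.89 and 4.93 CPM at 0 h. It fell in KO livers by 1.62 ± 0.30 (adjusted p = 0.000626), while the WT response of 0.77 ± 0.28 did not pass (adjusted p = 0.095). The difference, -2.39 ± 0.41 (SE, adjusted p = 0.00467), was of both times and passed in all 12 fits.

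Transcription regulators were spread over both directions. Id2, an inhibitor of basic helix-loop-helix factors, had 26.3, 32.7 and 26.5 CPM in KO livers at 1 h and 40.8, 38.2 and 38.7 CPM in KO livers at 0 h. In WT livers, Id2 had 78.3, 36.5 and 48.1 CPM at 1 h, with 16.6, 16.2 and 17.2 CPM at 0 h. KO livers were below WT livers at 1 h and above them at 0 h, without overlap. The Id2 difference was -2.16 ± 0.30 (SE, adjusted p = 0.00156) and passed in all 12 fits. In KO livers Id2 responded by -0.46 ± 0.21 (adjusted p = 0.203) and in WT livers by 1.70 ± 0.22 (adjusted p = 1.85e-05). KO minus WT was -0.93 ± 0.21 at 1 h (adjusted p = 0.0419) and 1.23 ± 0.22 at 0 h (adjusted p = 0.0545), so the difference was of both times. Its relative Id1, at low levels, gave -2.19 ± 0.54 (SE, adjusted p = 0.0606, of both times) and did not pass. Klf2, a Kruppel-like factor known from endothelium, had 5.23, 4.73 and 5.61 CPM in KO livers at 1 h and 3.01, 3.13 and 3.73 CPM in KO livers at 0 h. In WT livers, Klf2 had 11.5, 11.98 and 11.6 CPM at 1 h, with 2.19, 1.89 and 2.398 CPM at 0 h. All 3 WT livers at 1 h were above all 3 KO livers at 1 h, and both groups at 1 h were above both groups at 0 h. The difference was -1.76 ± 0.36 (SE, adjusted p = 0.0185), of both times, and passed in 10 of the 12 fits. In KO livers Klf2 responded by 0.65 ± 0.25 (adjusted p = 0.11) and in WT livers by 2.40 ± 0.25 (adjusted p = 6.37e-08). The sinusoidal endothelial markers summed to 249.5 to 270.2 CPM in KO livers at 1 h and 279.8 to 304 CPM in KO livers at 0 h. In WT livers the same markers summed to 264 to 294 CPM at 1 h and 267 to 304 CPM at 0 h. None of the 10 passed by edgeR or DESeq2 or reached an unadjusted p under 0.05. Tbx3, a T-box repressor and a target of WNT signalling in pericentral hepatocytes, had 15.7, 19.1 and 19.4 CPM in KO livers at 1 h and 27.2, 24.6 and 15.03 CPM in KO livers at 0 h. In WT livers, Tbx3 had 42.7, 31.4 and 32.7 CPM at 1 h, with 10.96, 11.8 and 14.8 CPM at 0 h. The WT livers at 1 h stood above the other 9 libraries, and the difference, -1.79 ± 0.36 (SE, adjusted p = 0.0226), was of both times (5 of the 12 fits).

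Cebpa, the C/EBP-alpha factor of the mature hepatocyte, had 38.2, 31.6 and 40.04 CPM in KO livers at 1 h and 59.05, 53.7 and 46.8 CPM in KO livers at 0 h. In WT livers, Cebpa had 69.1, 48.1 and 55.9 CPM at 1 h, with 47.2, 41.8 and 45.7 CPM at 0 h. KO livers at 1 h were below WT livers at 1 h, and the groups overlapped at 0 h. Its difference of response was -0.90 ± 0.20 (SE, adjusted p = 0.0323), mainly of 1 h (4 of the 12 fits), with a fall of 0.54 ± 0.14 in KO livers (adjusted p = 0.0145). Onecut2, a homeobox factor of liver and bile duct development, gave -0.80 ± 0.19 (SE, adjusted p = 0.0488), of both times (3 of the 12 fits). Among 22 hepatocyte transcription factors, 21 had a lower response in KO with a median of -0.30, and these 2 passed; 5 were lower at an unadjusted p under 0.05. Within the genotypes, 9 of the 22 fell and none rose in KO livers, and 1 fell and none rose in WT livers. Foxa1, a pioneer factor, did not pass, at -0.73 ± 0.24 (SE, adjusted p = 0.196, mainly of 1 h). Bcl3, an atypical nuclear I-kappa-B protein, had 1.92, 1.49 and 1.91 CPM in KO livers at 1 h and 5.699, 5.67 and 4.72 CPM in KO livers at 0 h. In WT livers, Bcl3 had 7.37, 4.99 and 4.79 CPM at 1 h, with 3.61, 3.15 and 4.13 CPM at 0 h. KO livers were below WT livers at 1 h and above them at 0 h, without overlap. Bcl3 fell in KO livers by 1.59 ± 0.30 (adjusted p = 0.00074), its difference of response was -2.23 ± 0.41 (SE, adjusted p = 0.00634), mainly of 1 h, and it passed in all 12 fits.

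The genes with a higher response in KO livers were mostly genes that fell in WT livers. Map2k6, the MKK6 kinase that activates p38 MAP kinases, had 5.401, 5.95 and 6.503 CPM in KO livers at 1 h and 14.7, 9.401 and 11.3 CPM in KO livers at 0 h. In WT livers, Map2k6 had 2.28, 1.997 and 2.48 CPM at 1 h, with 26.2, 19.3 and 24.9 CPM at 0 h. KO livers were above WT livers at 1 h and below them at 0 h, without overlap, and both genotypes fell. In KO livers Map2k6 responded by -0.97 ± 0.24 (adjusted p = 0.00885) and in WT livers by -3.39 ± 0.27 (adjusted p = 4.16e-10). The Map2k6 difference was 2.41 ± 0.37 (SE, adjusted p = 0.00156), of both times, and passed in all 12 fits. In the stress kinase list it was the 1 of 21 members that passed (median 0.083; 0 lower). Setdb2, a SET-domain protein that is a putative histone lysine methyltransferase, had 0.697, 0.405 and 1.403 CPM in KO livers at 1 h and 0.158, 0.149 and 0.621 CPM in KO livers at 0 h. In WT livers, Setdb2 had 1.07, 0.713 and 0.165 CPM at 1 h, with 6.32, 2.73 and 6.66 CPM at 0 h. The 3 WT livers at 0 h were above the other 9 libraries, in which the gene was at 1.40 CPM or less. Its difference, 4.27 ± 0.88 (SE, adjusted p = 0.0189), therefore arose at 0 h, where KO minus WT was -3.95 ± 0.54 (adjusted p = 0.000453), against 0.32 ± 0.63 at 1 h (adjusted p = 0.936). At such low counts the fitted fold depends on the prior count. Setdb2 passed in 8 of the 12 fits and did not pass by DESeq2, which called 58 of the 60 genes. Cep85l, a centrosomal protein, was also mainly of 0 h, with 64.8 to 84.9 CPM in KO livers and 93.5 to 121 CPM in WT livers at 0 h. The Cep85l difference was 0.93 ± 0.19 (SE, adjusted p = 0.0189) (5 of the 12 fits).

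Among drug-metabolising genes, the cytochrome gene Cyp3a25 had 855, 1053 and 892 CPM in KO livers at 1 h and 722, 701 and 784 CPM in KO livers at 0 h. In WT livers, Cyp3a25 had 429.8, 644 and 407 CPM at 1 h, with 962, 1012 and 978 CPM at 0 h. KO livers were above WT livers at 1 h and below them at 0 h, without overlap. It fell by 1.00 ± 0.16 in WT livers (adjusted p = 5.71e-05), while the KO response of 0.34 ± 0.15 did not pass. The Cyp3a25 difference, 1.34 ± 0.22 (SE, adjusted p = 0.00278), was mainly of 1 h and passed in all 12 fits. The related Cyp3a59 differed by 1.94 ± 0.40 (SE, adjusted p = 0.0354), mainly of 1 h, and passed in 3 of the 12 fits, not without KO 1 h replicate 1. Paralogs of the Cyp3a cluster can share reads, which makes both uncertain. Cyp3a25 was the 1 of 25 phase I genes that passed (median 0.26, and DESeq2 called 1 higher). None of 23 phase II genes passed by edgeR or DESeq2, with 3 higher and 0 lower at an unadjusted p under 0.05. Mup-ps12, of the major urinary protein family whose members share reads, gave 1.60 ± 0.37 (SE, adjusted p = 0.0354), of both times, and passed in 4 of the 12 fits, not without KO 1 h replicate 1.

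Abcg5 and Abcg8 encode the subunits of the transporter that secretes sterols into bile. They are divergent neighbours, with starts 110 bases apart on GRCm38.p6, and their RefSeq promoter windows share 209 bases. The Abcg8 window is shown because both genes moved together; capitals mark the 109 bases between the 2 starts.
Abcg8 (chr17:84682871-84683170, plus strand): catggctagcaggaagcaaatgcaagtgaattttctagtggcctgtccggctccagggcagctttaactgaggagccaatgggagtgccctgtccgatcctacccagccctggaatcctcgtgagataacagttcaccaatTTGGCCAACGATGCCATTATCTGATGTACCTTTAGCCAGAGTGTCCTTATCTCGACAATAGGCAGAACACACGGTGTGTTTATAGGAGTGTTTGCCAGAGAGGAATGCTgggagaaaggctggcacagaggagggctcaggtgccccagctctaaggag
Abcg5 had 41.1, 30.01 and 25.5 CPM in KO livers at 1 h and 36.9, 38.2 and 40.2 CPM in KO livers at 0 h. In WT livers, Abcg5 had 16.1, 14.98 and 16.03 CPM at 1 h, with 42.7, 42.2 and 37.4 CPM at 0 h. In these values the 3 WT livers at 1 h are the lowest of the 12. Abcg8 had 35.9, 31.8 and 30.7 CPM in KO livers at 1 h and 40.7, 36.7 and 46.6 CPM in KO livers at 0 h. In WT livers, Abcg8 had 16.2, 16.3 and 22.8 CPM at 1 h, with 47.6, 41.2 and 39.97 CPM at 0 h. For both genes the 3 WT livers at 1 h were below all other libraries, and KO and WT livers overlapped at 0 h. Abcg5 fell by 1.38 ± 0.18 (adjusted p = 4.09e-06) and Abcg8 by 1.23 ± 0.14 (adjusted p = 3.55e-07) in WT livers, and neither change passed in KO livers. The differences of response were 1.11 ± 0.24 (SE, adjusted p = 0.0318) for Abcg5 and 0.89 ± 0.19 (SE, adjusted p = 0.0229) for Abcg8, both mainly of 1 h. Abcg8 passed in 6 of the 12 fits and Abcg5 in 1, not without KO 1 h replicate 1. The bile acid synthesis and transport list had a median of 0.015, with none of 20 called by edgeR or DESeq2, and 0 higher and 1 lower at an unadjusted p under 0.05.

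Foxo3, a forkhead factor that AKT phosphorylates, had 65.9, 57.8 and 50.1 CPM in KO livers at 1 h and 37.4, 38.5 and 35.02 CPM in KO livers at 0 h. In WT livers, Foxo3 had 30.3, 40.2 and 21.2 CPM at 1 h, with 51.04, 43.1 and 45.4 CPM at 0 h. KO livers lay above WT livers at 1 h and below them at 0 h, without overlap. The directions were opposite. In KO livers Foxo3 responded by 0.65 ± 0.17 (adjusted p = 0.0186) and in WT livers by -0.60 ± 0.18 (adjusted p = 0.0323). The difference was 1.25 ± 0.25 (SE, adjusted p = 0.0185), mainly of 1 h (7 of the 12 fits). Foxo1 gave 0.65 ± 0.18 (SE, adjusted p = 0.0991, of both times) and did not pass. In the gluconeogenesis and insulin response list 1 of 22 members passed (Foxo3), with a median of -0.054, and 5 were higher and 5 lower at an unadjusted p under 0.05. DESeq2 called 2 of them higher and 2 lower, and without KO 1 h replicate 1 the median was -0.13 and 2 of 23 passed. Trim24, a chromatin-binding nuclear receptor cofactor, had 43.7, 39.5 and 51.5 CPM in KO livers at 1 h and 23.6, 30.7 and 26.8 CPM in KO livers at 0 h. In WT livers, Trim24 had 26.1, 40.4 and 20.99 CPM at 1 h, with 45.6, 45.4 and 40.1 CPM at 0 h. At 1 h WT replicate 2 overlapped the KO livers, and at 0 h all KO livers were lower. Trim24 rose in KO livers and fell in WT livers. In KO livers Trim24 responded by 0.73 ± 0.16 (adjusted p = 0.0037) and in WT livers by -0.58 ± 0.16 (adjusted p = 0.0232). The Trim24 difference was 1.31 ± 0.23 (SE, adjusted p = 0.0049), of both times, and passed in all 12 fits. Itih5, an inter-alpha-trypsin inhibitor heavy chain, was the third gene with opposite changes, at 1.34 ± 0.28 (SE, adjusted p = 0.0226), of both times (7 of the 12 fits). The others with a higher response were Shroom3, an actin-binding protein, at 1.38 ± 0.33 (SE, adjusted p = 0.0454) and Tent5c, a poly(A) polymerase, at 1.37 ± 0.31 (SE, adjusted p = 0.0351), both of both times. Mad1l1, of the spindle checkpoint, at 1.29 ± 0.29 (SE, adjusted p = 0.0329), and Fam210a, a mitochondrial protein, at 0.80 ± 0.17 (SE, adjusted p = 0.0202), were mainly of 1 h. Shroom3 passed in 3, Tent5c in 2, Mad1l1 in 4 and Fam210a in 7 of the 12 fits.

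Nfkbia, the I-kappa-B-alpha inhibitor that NF-kB itself induces, had 29.6, 25.4 and 23.6 CPM in KO livers at 1 h and 18.8, 17.9 and 15.8 CPM in KO livers at 0 h. In WT livers, Nfkbia had 18.9, 21.5 and 20.2 CPM at 1 h, with 26.6, 21.02 and 25.7 CPM at 0 h. KO livers were higher at 1 h and lower at 0 h, and it rose in KO livers by 0.58 ± 0.14 (adjusted p = 0.00568). Its difference, 0.86 ± 0.19 (SE, adjusted p = 0.0323), was of both times and passed in 4 of the 12 fits, not without KO 1 h replicate 1. In the list of NF-kB targets and chemokines the median was 0.58, the highest of the 33 lists. Without KO 1 h replicate 1 it was 0.47, below the 0.53 of the ERK feedback inhibitors and targets, and Bcl3 alone passed. Of 19 tested members only Nfkbia passed as higher and Bcl3 as lower, with 6 higher and 1 lower at an unadjusted p under 0.05. Vcam1, an adhesion molecule, gave 1.14 ± 0.30 (SE, adjusted p = 0.094, mainly of 1 h) and did not pass. Cd163, the haemoglobin scavenger receptor of macrophages, had 17.4, 18.8 and 12.8 CPM in KO livers at 1 h and 14.6, 12.5 and 9.56 CPM in KO livers at 0 h. In WT livers, Cd163 had 9.11, 12.1 and 11.2 CPM at 1 h, with 17.1, 25.2 and 25.2 CPM at 0 h. KO livers were higher at 1 h and lower at 0 h, and the difference, 1.47 ± 0.33 (SE, adjusted p = 0.0354), was of both times and passed in 4 of the 12 fits, not without KO 1 h replicate 1. All 11 Kupffer cell markers had a higher response in KO, with a median of 1.01, and 9 at an unadjusted p under 0.05 (5.42% of all genes were). Cd163 was the one that passed (DESeq2 called 2 higher). In WT livers 7 of the 11 fell, and in KO livers none passed in either direction. Without KO 1 h replicate 1 the median was 0.84, 7 were higher at an unadjusted p under 0.05 and 0 passed. The 11 markers summed to 89.1 to 127 CPM in KO livers at 1 h and 78.3 to 102 CPM in KO livers at 0 h. In WT livers the Kupffer markers summed to 68.6 to 79.2 CPM at 1 h and 98.99 to 179.9 CPM at 0 h, and no marker was at 0 throughout a group. The part of Kupffer cell content in the Nfkbia and NF-kB values was not tested. Stellate cell and fibroblast markers had a median of 0.62, with none of 11 called by edgeR or DESeq2 and 3 higher at an unadjusted p under 0.05.

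**Figure D4:**
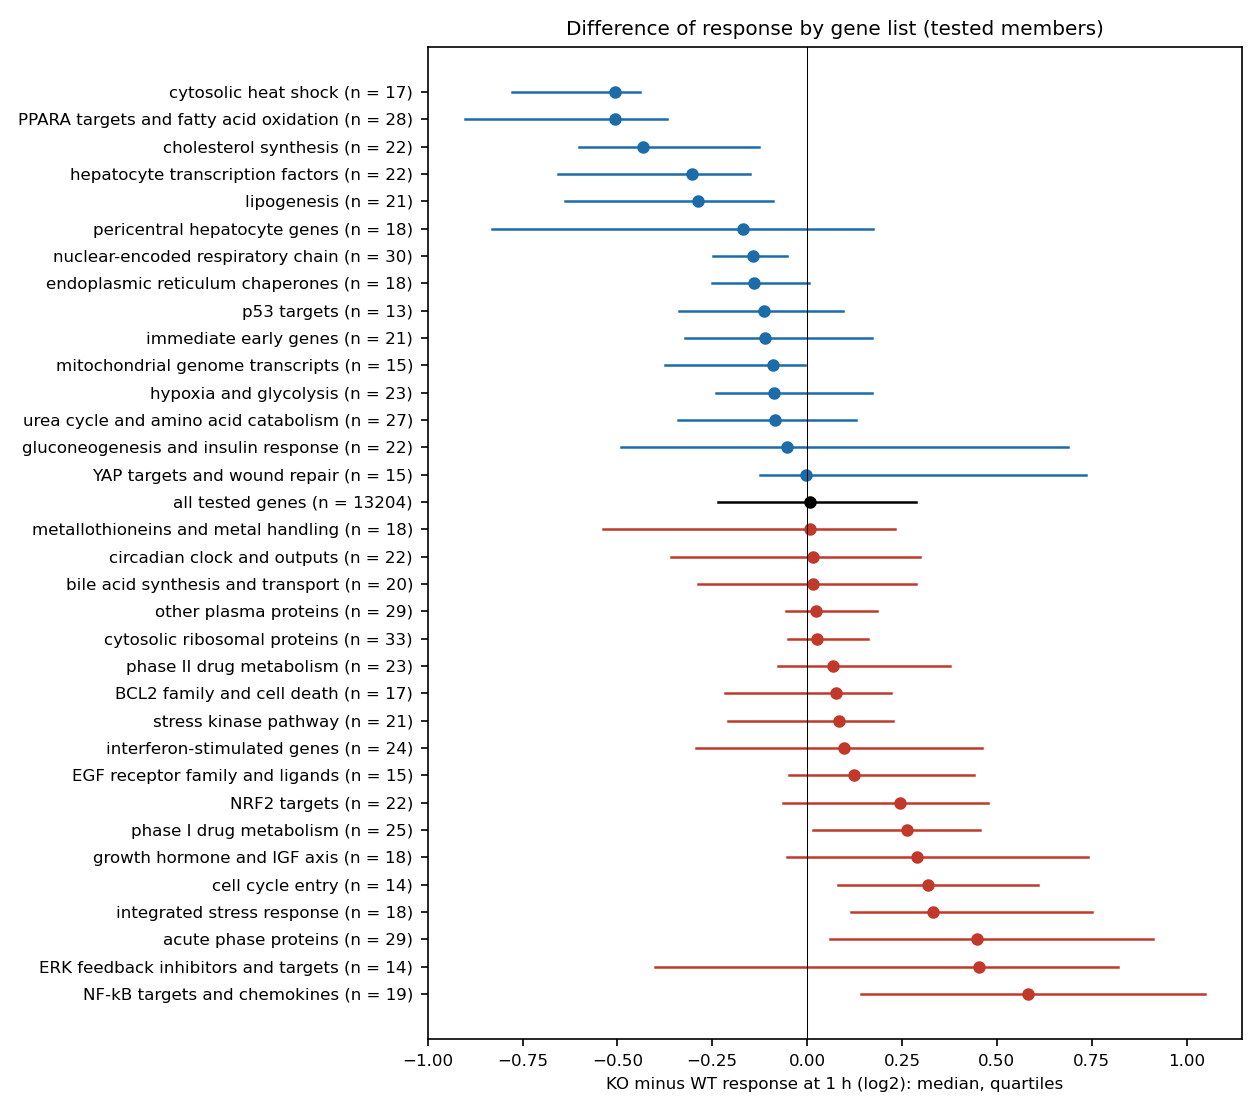
Median (point) and quartiles (line) of the difference of response, KO minus WT, on the log2 scale for 33 gene lists and all 13204 tested genes (black), with the number of tested members. Heat shock and PPARA genes lie lowest, both at -0.51, and NF-kB targets highest, at 0.58, with all 12 libraries in the fit.

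No gene of the EGF receptor, ligand and ERK feedback lists passed by edgeR. Egfr had a difference of response of 1.38 ± 0.61 (SE, adjusted p = 0.417, mainly of 0 h). KO minus WT was -0.87 ± 0.43 at 1 h and -2.25 ± 0.45 at 0 h, and neither passed by edgeR. The 3 KO livers at 1 h include the library that goes against its label. Of 15 EGF receptor family and ligand genes, none passed by edgeR or DESeq2, with 2 higher and 0 lower at an unadjusted p under 0.05 and a median of 0.12. Erbb3, a partner receptor that binds neuregulins, had 60.6, 60.3 and 63.5 CPM in KO livers and 88.03, 80.3 and 82.5 CPM in WT livers at 0 h, without overlap. Its difference of response was 0.40 ± 0.17 (SE, adjusted p = 0.359, mainly of 0 h). Of 14 ERK feedback inhibitors and targets, none passed by edgeR, with 2 higher and 1 lower at an unadjusted p under 0.05, a median of 0.45 and 1 called lower by DESeq2. Without KO 1 h replicate 1, 0 of 16 passed, with 5 higher and 1 lower at an unadjusted p under 0.05. In that fit 1 of the 16 passed as higher in KO at 1 h. The feedback inhibitors Spred1, at 0.93 ± 0.26 (SE, adjusted p = 0.104, of both times), and Spry4, at 1.21 ± 0.43 (SE, adjusted p = 0.238, of both times), did not pass. Nor did the ephrin receptor gene Epha2, at -1.17 ± 0.30 (SE, adjusted p = 0.0822, of both times). Immediate early genes rose in both genotypes, 11 of 21 in KO livers and 14 in WT livers, with a median difference of -0.11; Klf2 was the 1 that passed, and as lower. Egr1, a zinc-finger factor induced by ERK, had 126, 240.1 and 198 CPM in KO livers and 191, 216 and 194 CPM in WT livers at 1 h. Jun, of the AP-1 complex, had 212, 237 and 198 CPM in KO livers and 203, 263 and 193 CPM in WT livers. Both genes overlapped between genotypes at both times. The differences were -0.43 ± 0.56 (SE, adjusted p = 0.86, mainly of 0 h) for Egr1 and -0.17 ± 0.34 (SE, adjusted p = 0.923, mainly of 0 h) for Jun, and both signs turn without KO 0 h replicate 2.

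Other lists chosen for liver and acetaminophen had few or no calls. Acute phase proteins had a median of 0.45, with 0 of 29 called by edgeR, 2 higher and 1 lower at an unadjusted p under 0.05, and 1 called higher by DESeq2. The integrated stress response list had a median of 0.33, with 0 of 18 called by edgeR or DESeq2 and 2 in each direction at an unadjusted p under 0.05. Sesn2, a stress-induced regulator of mTORC1, gave 1.66 ± 0.47 (SE, adjusted p = 0.123, of both times). NRF2 targets, which defend against oxidants, had a median of 0.24, with 0 of 22 called by either tool and 1 in each direction at an unadjusted p under 0.05. The metallothioneins Mt1 and Mt2, which bind zinc and are induced by stress, differed by 1.43 ± 0.52 (SE, adjusted p = 0.282, mainly of 1 h) for Mt1 and 1.44 ± 0.45 (SE, adjusted p = 0.195, mainly of 1 h) for Mt2 and did not pass. Mt2 had 324, 305 and 473 CPM in KO livers and 251, 133 and 95.8 CPM in WT livers at 1 h, without overlap. Growth hormone and IGF axis genes had a median of 0.29, with 0 of 18 called by edgeR, 4 higher and 0 lower at an unadjusted p under 0.05 and 1 called higher by DESeq2. Socs2, a feedback inhibitor of growth hormone signalling, gave 1.95 ± 0.74 (SE, adjusted p = 0.319, of both times), and Bcl6, a repressor that growth hormone lowers, 1.99 ± 0.54 (SE, adjusted p = 0.131, of both times). Clock genes had a median of 0.015, with 0 of 22 called by either tool and 2 in each direction at an unadjusted p under 0.05. The period genes gave -0.87 ± 0.29 (SE, adjusted p = 0.207, of both times) for Per2 and 1.39 ± 0.50 (SE, adjusted p = 0.264, mainly of 1 h) for Per3. Cytosolic ribosomal proteins had a median of 0.026, with 0 of 33 called by either tool and 0 at an unadjusted p under 0.05.

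The remaining genes with a lower response in KO fell into no list. Dennd2b (a RAB exchange factor) at -1.03 ± 0.23 (SE, adjusted p = 0.0329), Caprin1 (an RNA-binding protein of stress granules) at -0.73 ± 0.16 (SE, adjusted p = 0.0323) and Hykk (hydroxylysine kinase) at -0.73 ± 0.16 (SE, adjusted p = 0.0226) differed mainly at 1 h. Hyal1 (a lysosomal hyaluronidase) at -0.97 ± 0.18 (SE, adjusted p = 0.00635), and Tedc2 (a tubulin complex protein) at -0.89 ± 0.21 (SE, adjusted p = 0.0488) differed at both times. So did Plekha6 (a pleckstrin homology domain protein) at -0.86 ± 0.20 (SE, adjusted p = 0.0425) and Arf4 (a GTPase of Golgi traffic) at -0.82 ± 0.17 (SE, adjusted p = 0.0226). Dennd2b passed in 4, Caprin1 in 4, Hykk in 5, Hyal1 in 11, Tedc2 in 2, Plekha6 in 1 and Arf4 in 6 of the 12 fits, and Dennd2b and Plekha6 not without KO 1 h replicate 1. Adh7, an alcohol dehydrogenase, gave -1.18 ± 0.23 (SE, adjusted p = 0.0153), mainly of 1 h, and St8sia3, a sialyltransferase, -2.21 ± 0.46 (SE, adjusted p = 0.0202), of both times, passing in 9 (Adh7) and 7 (St8sia3) of the 12 fits. Only 28.6% of the Adh7 counts and 14.4% of the St8sia3 counts were on the annotated strand, so these values may belong to transcripts of the other strand. A further 10 of the 60 are predicted loci, 4 of which (Gm52920, Gm31388, Gm51671 and Gm16146) had 0.286% to 7.02% of their counts on the annotated strand. Gm53285, Gm31388, Gm51671, Gm33047 and Gm38051 differed mainly at 1 h, and Gm52920, Gm39103, 2010003K11Rik and 2310001H17Rik at both times. Gm33047, Gm38051, Gm51671, Gm39103 and 2010003K11Rik did not pass without KO 1 h replicate 1. Gm31388, which passed in all 12 fits, had 12.5, 12.6 and 12.2 CPM in KO livers and 26.8, 26.4 and 32.6 CPM in WT livers at 1 h. Its KO minus WT was -1.19 ± 0.14 at 1 h and -0.02 ± 0.14 at 0 h. Gm16146, which also passed in all 12, had 18.05, 15.2 and 13.2 CPM in KO livers and 32.5, 29.01 and 25.98 CPM in WT livers at 0 h. The Gm16146 difference, 1.08 ± 0.20 (SE, adjusted p = 0.0076), arose mainly at 0 h.

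In the 3 h and 12 h libraries, which are outside the contrast but share its fit, few of the 60 genes kept the sign they had at 1 h. KO minus WT had the same sign at 3 h as at 1 h for 15 of the 60 (5800 of all 13204), and at 12 h for 17 (6368 of all). The 60 were chosen for a difference between 0 h and 1 h and all genes were not, so these counts are given as a description. For the 39 genes with a lower response, the median KO minus WT was 0.39 at 0 h, -0.82 at 1 h, 0.27 at 3 h and 0.15 at 12 h. For the 21 with a higher response it was -0.57, 0.74, -0.05 and -0.19 at the same times. At 3 h, 4 of the 60 differed between genotypes (129 of all genes, 0.977%), and 20 were at an unadjusted p under 0.05 (10.4% of all genes). At 12 h none of the 60 did by edgeR (0.053% of all genes), and 9 were at an unadjusted p under 0.05 (10.3%). Hspa1b was higher in KO at 3 h by 2.51 ± 0.53 (adjusted p = 0.0201), the reverse of 1 h. It had 6.02 ± 4.296 CPM in KO livers and 1.004 ± 0.279 CPM in WT livers at 3 h (SD, n = 3). Adh7 was likewise higher in KO at 3 h, by 0.83 ± 0.19 (adjusted p = 0.0239), and Tent5c lower, by -1.12 ± 0.22 (adjusted p = 0.0102), each against its sign at 1 h. Gm16146 was higher in KO at 3 h by 0.68 ± 0.15 (adjusted p = 0.0158). Outside the 60, Dnaja1, at 0.53 ± 0.13 (adjusted p = 0.0337), and Hspa8, at 0.51 ± 0.13 (adjusted p = 0.0451), were higher in KO at 3 h too.

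**Figure D5:**
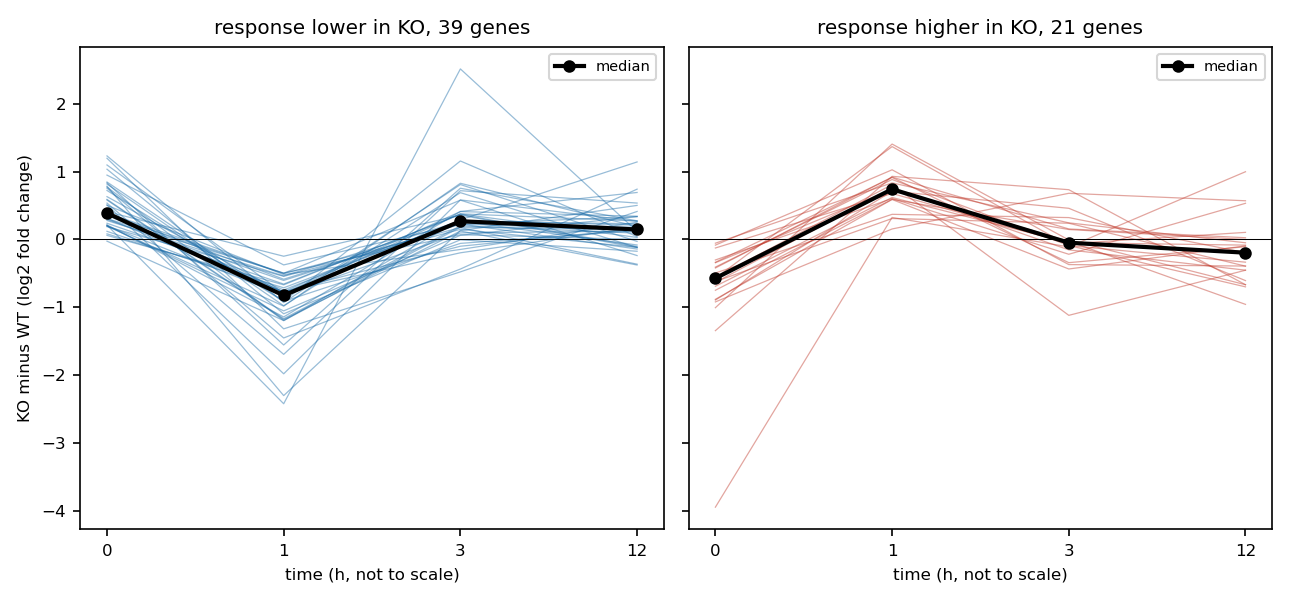
KO minus WT (log2 fold change) at 0, 1, 3 and 12 h for the 39 genes with a lower response in KO (left) and the 21 with a higher one (right); thin lines are genes and the black line their median. The genes were chosen on 0 h and 1 h; at 3 h the medians are 0.27 on the left and -0.05 on the right.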

How the data were processed

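Liver RNA of individual mice was sequenced on an AVITI instrument, per the labels' protocols, and aligned with STAR to mm39, per the submitters' processing notes. The sources used here name neither the STAR version nor the annotation. The deposited files hold the authors' raw counts per gene, unstranded and for each strand; the unstranded counts were used. The 4 lines that name no gene were left out of totals, and 19.2% to 22.5% of all reads were assigned to genes. Ambiguous reads, which overlap several genes, made up 26.3% to 29.9% of all reads, so genes that overlap are undercounted. Genes that share reads with others may be undercounted too.

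Counts of 24 libraries in 8 groups were fitted together in edgeR 4.0.16 (R 4.3.3; filterByExpr, TMM, robust quasi-likelihood, 16 residual degrees of freedom), which left 13204 of 50657 genes; p-values were adjusted over all of them. DESeq2 1.42.0 was an alternative. Named genes are the 12 per direction with the largest absolute difference among those that passed with at least 5 CPM in the highest group, without predicted loci, and members of 33 gene lists; the other genes that passed were named after their values were seen. For 1 gene that passed, the result is not reported here. The members and lists were chosen with earlier results of these data known. No pair of replicates agreed within sampling noise. Replicate numbers were not used to pair the libraries in the main fit. Counting error and the 3 mice per group limit the precision.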

Additional observations from a re-analysis of the deposited data

Results flagged for a closer look

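Each of the genes below drew attention because its 1 h response differed between KO and WT livers by a test of the difference itself (edgeR, adjusted p under 0.05); the values are log2 differences, KO response minus WT response. No explanation of them was tested.

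The 13 genes that passed in all 12 fits leaving out 1 library were Gm53285 -2.49, Aqp4 -2.39, Bcl3 -2.23, Id2 -2.16, Plin2 -1.36, Gk -1.26, Gm31388 -1.17, Mgll -1.10, Hsdl2 -0.90, Gm16146 1.08, Trim24 1.31, Cyp3a25 1.34 and Map2k6 2.41. The 11 that passed in 7 to 11 of them were St8sia3 -2.21, Klf2 -1.76, Adh7 -1.18, Elovl5 -1.09, Hyal1 -0.97, Lipa -0.89, Fam210a 0.80, Foxo3 1.25, Itih5 1.34, 2310001H17Rik 2.27 and Setdb2 4.27. Those that passed in 4 to 6 and are reported were Inhbe -3.09, Mfsd2a -2.51, Tubb2a -1.89, Tbx3 -1.79, Gm52920 -1.64, Dennd2b -1.03, Cebpa -0.90, Arf4 -0.82, Grb14 -0.80, Caprin1 -0.73, Hykk -0.73, Nfkbia 0.86, Abcg8 0.89, Cep85l 0.93, Mad1l1 1.29, Cd163 1.47 and Mup-ps12 1.60. The 18 that passed in 1 to 3 were Hspa1b -2.63, 2010003K11Rik -1.97, Tor3a -1.76, Hsph1 -1.76, Gm39103 -1.43, Tuba1c -1.32, Gm51671 -1.14, Slc25a22 -1.02, Tedc2 -0.89, Plekha6 -0.86, Onecut2 -0.80, Cpt2 -0.66, Gm33047 0.91, Gm38051 1.08, Abcg5 1.11, Tent5c 1.37, Shroom3 1.38 and Cyp3a59 1.94.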

How the results depend on the processing

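All 60 genes kept the direction of their difference under every alternative that gave a value. With 60 genes passing at first, the count stayed between 47 and 60 with RLE scaling, library size alone, the ribosomal RNA loci left out, a filter of 1 CPM, only the 12 libraries, or the gene-strand column. The genes were not all the same. Of the 60 themselves, 45 still passed with only the 12 libraries and 45 in the gene-strand column, where 56 had a value. It was 57 with the filter of 1 CPM and 55 with each of the other 3. Without a filter on low counts it was 217 (85 higher, 132 lower), with DESeq2 112 (44 higher, 68 lower) and at an adjusted p under 0.1 122 (47 higher, 75 lower). KO against WT at 0 h gave 95 genes without a filter, 24 with DESeq2, 1 in the gene-strand column, 6 without KO 1 h replicate 1 and WT 0 h replicate 2 together (an alternative chosen after seeing the data) and 18 at 0.1. KO against WT at 1 h gave 230 without a filter, 98 with DESeq2, 130 without those 2 libraries and 131 at 0.1, and the KO response 1609 at 0.1. The causes were not tested.

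Leaving out 1 library at a time, or those 2 together, 15 to 83 genes differed in response (5 to 31 higher, 10 to 56 lower), 1 to 14 genes between KO and WT at 0 h, 16 to 130 at 1 h, 567 to 1283 within KO and 684 to 1096 within WT; the Egfr difference was -1.82 to -1.50. The lowest counts for the difference came without KO 1 h replicate 2, KO 0 h replicate 2 (19) and WT 1 h replicate 3 (20). Egr1 and Jun, which did not pass, turned sign without KO 0 h replicate 2, with ranges of -0.75 to 0.44 for Egr1 and -0.42 to 0.059 for Jun.

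Of 18 same-numbered pairs, 3 correlated above 0.1 (range -0.17 to 0.15), and 6 of 12 libraries correlated best with their own number. Deviations from a mean of 3 libraries cannot decide whether the numbers pair the libraries. With the replicate number as a block, the difference counted 82 genes over 24 libraries (34 higher) and 35 over 12 libraries (21 lower), and KO against WT at 0 h 18 and 6 genes. Of the 60 genes, 53 still passed with the block over 24 libraries and 26 with it over 12 libraries.

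With 4.60 M to 7.58 M gene counts per library, weakly expressed genes are covered by few reads, and with 3 mice per group smaller differences go undetected.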
